A study of Rattus norvegicus with 8 samples.

Results

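The interaction of Giver siRNA and angiotensin II (Ang II) is the difference between 2 responses to the hormone, computed for each gene as the Ang II effect in cells given Giver siRNA minus the Ang II effect in cells given control siRNA. All 8 samples of the series enter it, and it was computed for 11372 genes. The samples are vascular smooth muscle cells of male Sprague-Dawley rats, digested from thoracic aortas and grown for 2 passages in medium with serum. Cells of 2 groups received a non-targeting control siRNA (siNTC) and cells of the remaining 2 received siRNA against rat Giver (siGiver), for 48 h in each case. For each siRNA, 1 group was then given 100 nM Ang II for 3 h and the other an equal volume of phosphate-buffered saline (PBS), which made 4 groups of 2 arrays. RNA was measured on Affymetrix arrays, whose values are on a log2 scale, so that a difference of 1 means a ratio of 2.

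Giver is transcribed from a long non-coding RNA gene in smooth muscle of the vessel wall, and the design asks whether its knockdown alters the response to Ang II. The array annotation names no Giver probe set, and the depth of the knockdown was not analysed here. The labels do not say how many siRNA sequences were used, nor whether arrays of 1 group stem from cultures kept apart. P-values therefore reflect the spread between these arrays alone, and that spread may be technical. Paired arrays of a group correlated at 0.998 over all probe sets in every group. All 8 smooth muscle identity markers looked up lay above the filter on dim probe sets (a mean of 4.81 log2), against 2 of 9 endothelial and 4 of 12 macrophage and leukocyte markers. Of 10 fibroblast markers, 9 also lay above it. In bulk RNA, fewer cells of a type and less RNA per cell cannot be told apart.

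Ang II acts on smooth muscle mainly through its type 1 receptor, which couples to G proteins, releases calcium and, in part by shedding ligands of the EGF receptor, activates the kinase ERK. Within minutes to hours this induces immediate early transcription factors, followed by phosphatases and other inhibitors that switch the same pathways off. Interferon response genes form a separate programme. They are induced by STAT and IRF factors, which bind the interferon-stimulated response element in their promoters, and they encode antiviral proteins, chemokines and the machinery of antigen presentation.

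Promoter stretches of 10 genes with a called interaction are given here, picked because they hold the marked element. They do not stand for the other genes of either direction, whose shares follow the sequences. In 5 genes that rose with Ang II in siNTC but not in siGiver cells, capitals mark the core of the interferon-stimulated response element, searched as GAAANNGAAA on both strands. In 5 genes whose response was larger in siGiver cells, capitals mark the cyclic AMP response element, searched as TGACGTCA. Sequences are RefSeq's, build GRCr8, read 5′ to 3′ along the gene's strand within 250 bases upstream of the start site.
Ifit3, chr1:241527257-241527316, + strand: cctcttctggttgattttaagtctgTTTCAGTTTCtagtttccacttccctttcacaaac
Irf7, chr1:205800058-205800117, - strand: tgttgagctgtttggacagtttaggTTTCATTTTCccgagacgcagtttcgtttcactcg
Gbp2, chr2:234005671-234005726, + strand: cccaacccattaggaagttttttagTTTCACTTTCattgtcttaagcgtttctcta
Igtp, chr10:42874919-42874978, + strand: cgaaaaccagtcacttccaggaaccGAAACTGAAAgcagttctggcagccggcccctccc
Psme2, chr15:33052770-33052829, - strand: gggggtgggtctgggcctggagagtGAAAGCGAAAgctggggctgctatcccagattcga
Ier2, chr19:40399282-40399339, + strand: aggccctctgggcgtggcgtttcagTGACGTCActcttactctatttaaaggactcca
Maff, chr7:112792711-112792768, + strand: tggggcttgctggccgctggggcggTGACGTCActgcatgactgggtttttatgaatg
Dusp1, chr10:17184704-17184761, + strand: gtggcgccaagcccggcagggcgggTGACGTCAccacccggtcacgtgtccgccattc
Rcan1, chr11:45118411-45118468, - strand: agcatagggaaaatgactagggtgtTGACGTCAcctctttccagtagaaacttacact
Flt1, chr12:12333281-12333338, + strand: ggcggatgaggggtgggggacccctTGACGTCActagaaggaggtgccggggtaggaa
The capitals in Ifit3, Irf7 and Gbp2 are the reverse complement of the searched letters.

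Of the 11372 genes, 9456 were matched to a promoter. The interferon core lay upstream of 246 of them (2.6%), and of 35 of the 284 matched genes with a negative interaction (12.3%). It lay upstream of 6 of 295 genes with a positive interaction (2.03%). Of 103 matched genes whose rise with Ang II was lost, 26 held it (25.2%), as did 11 of 16 matched antiviral effectors. The cyclic AMP element lay upstream of 283 of the 9456 (2.99%), of 14 of the 295 positive genes (4.75%) and of 4 of the 284 negative genes (1.41%). By list it lay upstream of 3 of 16 immediate early genes, 1 of 13 ERK feedback genes and 1 of 11 Nr4a and CREB target genes. Over all 27457 promoters of the RefSeq table the shares were 3.29% for the interferon core and 1.7% for the cyclic AMP element. An AP-1 site, searched as TGANTCA, lay upstream of 4.43% of the 9456, 5.76% of positive, 8.45% of negative and 13.6% of lost-rise genes. A STAT site, searched as TTCNNNGAA, lay upstream of 5.71%, 4.75%, 8.45% and 12.6%. All were searched on both strands. A match says that the letters are present, not that a factor binds there.

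Limma's moderated test, with Benjamini-Hochberg adjusted p under 0.05, called an interaction in 707 genes, 6.22% of those tested. It was positive in 381 (3.35%), meaning a more positive Ang II effect in siGiver cells, and negative in 326 (2.87%). The ratio of the 2 Ang II effects was at least 1.5-fold in 117 positive and 81 negative genes, at least 2-fold in 29 and 14, and at least 3-fold in 3 and 3. Without 1 array the count fell to 387 and 399 (siNTC PBS replicates 1 and 2), 356 and 374 (siNTC Ang II), 371 and 436 (siGiver PBS) and 431 and 384 (siGiver Ang II), and 263 of the 707 genes kept the call in all 8 of these fits.

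The array's own controls also differed between groups. A series of 12 probe sets for poly-A spike-ins, bacterial transcripts meant to be added to the RNA before labelling, had a mean per array of 8.15 and 8.22 in siNTC PBS, 8.27 and 8.26 in siNTC Ang II, 8.61 and 8.62 in siGiver PBS and 8.15 and 7.93 in siGiver Ang II arrays. They were highest in siGiver PBS arrays, and all 12 had a negative interaction, from -0.79 to -0.53 (mean -0.66). In a series of 9 probe sets for hybridization spike-ins, meant to be added after labelling, all had one too, from -0.32 to -0.17. The array holds a second series of probe sets for each kind of spike-in, which these values leave out. Differences between the 3′ and 5′ probe sets of rat beta-actin and Gapdh, a measure of RNA integrity, gave interactions of -0.02 and 0.03. The same difference for rat hexokinase gave 0.27, and was 0.24 and 0.41 in siGiver PBS and 0.32 and 0.73 in siGiver Ang II arrays. For the poly-A spike-ins dap, lys and phe, on the second series, it gave 0.23, 0.24 and -0.12. The part of the spike-in differences in the gene results, positive or negative, was not tested.

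In siNTC cells Ang II raised 451 genes (3.97%) and lowered 247 (2.17%), against 1037 (9.12%) and 818 (7.19%) in siGiver cells. By the calls within each arm, which share the arrays of the interaction and so only describe its shape, most positive genes were rises gained with siGiver. Among the 381, 225 rose only in siGiver cells (median Ang II effect 0.45, against 0.018 in siNTC cells). Another 94 rose in both arms and more in siGiver cells (medians 1.07 against 0.41), 37 fell in siNTC cells only, 6 fell in siNTC and rose in siGiver cells, and 19 were called in neither arm. Negative genes divided into 140 that fell only in siGiver cells (medians 0.053 in siNTC and -0.36 in siGiver), 124 that rose only in siNTC cells (0.41 and -0.084) and 28 that rose in siNTC and fell in siGiver cells. The remaining 34 negative genes were 27 called in neither arm, 4 amplified falls and 3 damped rises.

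**Figure D1:**
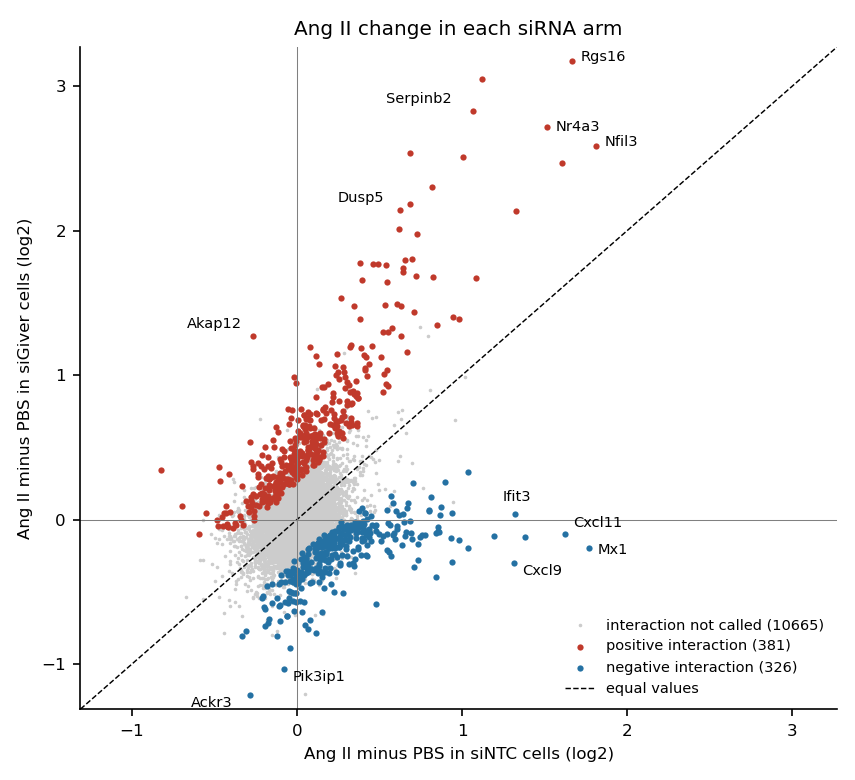
Ang II effect (Ang II minus PBS, log2) in siNTC cells on the x axis and in siGiver cells on the y axis, 1 point per gene for 11372 genes, with the 381 positive and 326 negative interactions in colour and the diagonal marking equal effects. Both axes share the spread of 1 fit, and points off the diagonal are the interaction; Mx1 lies far to the right near 0 on the y axis, and Rgs16 lies high on both axes.

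The gene lists, those of the promoter shares above included, were chosen with earlier results of these data known. Shares and counts of their members therefore only describe. Some genes are members of several lists and count in each. Over all genes, 3.35% were positive and 2.87% negative. The immediate early transcription factors lay on the gained side: 15 of the 24 tested had a positive interaction and none a negative one. Their median Ang II effect was 0.25 in siNTC and 0.66 in siGiver cells. Over all genes these medians were 0.0059 and -0.028. Egr2, a zinc finger factor induced through ERK and SRF, stood at 7.90 and 8.02 in siNTC PBS arrays, 8.83 and 8.74 in siNTC Ang II arrays, 7.73 and 7.76 in siGiver PBS arrays and 10.01 and 10.07 in siGiver Ang II arrays. No arrays of different groups overlapped, and siGiver arrays were the lowest in PBS and the highest with Ang II. Its interaction was 1.48 ± 0.083 (SE, 2 arrays per group; adjusted p = 0.000348), so the Ang II ratio was 2.79 times larger in siGiver cells. Egr1, its relative, stood at 10.31 and 10.33 in siNTC PBS and at 10.36 and 10.30 in siGiver PBS arrays, and reached 11.07 and 11.01 in siNTC and 12.03 and 11.99 in siGiver cells with Ang II. The siRNA arms thus overlapped in PBS and separated only with Ang II (interaction 0.96 ± 0.067, adjusted p = 0.000559).

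Fosl1, an AP-1 subunit, rose by 0.64 in siNTC and 1.72 in siGiver cells (interaction 1.07). Ier2 and Maff, whose promoters are printed above, rose by 0.55 and 0.22 in siNTC cells and by 1.30 and 0.85 in siGiver cells. Nfil3, a leucine zipper repressor, was already the steepest riser of the 4 in siNTC cells, at 1.81, and rose by 2.58 in siGiver cells. Fos itself rose by 0.63 and 1.27, but its interaction of 0.64 (adjusted p = 0.0149) was lost without siNTC PBS replicate 2, siNTC Ang II replicate 2 or siGiver Ang II replicate 1, the largest adjusted p being 0.06, and when its probe sets were averaged. The group's count fell to 9 without siNTC Ang II replicate 2. Egr3, Klf2, Klf4 and Jund, members of the same list, did not pass (-0.23, -0.027, -0.086 and -0.089).

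Of 14 Nr4a receptor and CREB target genes, 4 had a positive and none a negative interaction. Nr4a1, an orphan nuclear receptor whose activity follows its transcription, measured 7.09 and 7.27 in siNTC PBS, 8.20 and 8.18 in siNTC Ang II, 6.77 and 7.09 in siGiver PBS and 9.43 and 9.44 in siGiver Ang II arrays. The PBS groups met at 7.09, and with Ang II the arms were far apart. The interaction was 1.50 ± 0.147 (adjusted p = 0.00182). Its relative Nr4a3 measured 6.17 and 6.03, then 7.58 and 7.64, in siNTC cells, and 5.61 and 5.91, then 8.50 and 8.45, in siGiver cells. Its groups did not overlap, and the siGiver arrays were the lowest in PBS and the highest with Ang II (interaction 1.20 ± 0.136, adjusted p = 0.00336). The dimmest of the other probe sets of Nr4a3 gave 0.18 and did not pass. Nr4a2, the remaining family member, stood at -0.11 and did not pass, and neither did Crem (0.095) or Pde4d (0.14). The other called genes, Dusp1 and the G-protein inhibitor Rgs2, also count in the ERK feedback and G-protein lists and are described there.

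ERK feedback genes, not all of them inhibitors, followed the immediate early genes: 11 of 15 tested were positive and none negative, with a median interaction of 0.52. Dusp6, a cytoplasmic phosphatase that removes the activating phosphates of ERK, stood at 9.15 and 9.23 in siNTC PBS, 9.60 and 9.55 in siNTC Ang II, 9.25 and 9.31 in siGiver PBS and 11.06 and 11.06 in siGiver Ang II arrays. Both siGiver Ang II arrays were far above all others, and no groups overlapped. Its interaction was 1.39 ± 0.071 (adjusted p = 0.000348), and its other probe sets gave 1.42 and 1.29. The nuclear ERK phosphatase Dusp5 started higher in siGiver PBS arrays (6.35 and 6.45) than in siNTC PBS arrays (5.74 and 5.60) and ended at 8.52 and 8.55, against 6.24 and 6.34 in siNTC cells. The siGiver PBS arrays thus lay above both siNTC arrays given Ang II (interaction 1.52 ± 0.094, adjusted p = 0.000365).

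The receptor tyrosine kinase inhibitor Spry2 rose by 0.64 in siNTC and 1.74 in siGiver cells, and Errfi1, which blocks the EGF receptor, rose by 1.13 in siGiver cells with 0.12 in siNTC cells. Dusp1, a nuclear phosphatase of stress kinases, rose by 0.56 in siGiver cells with 0.14 in siNTC cells (interaction 0.42, adjusted p = 0.01). Etv4 and Etv5, ERK-dependent transcription factors on this list, had interactions of 0.81 and 0.56. Dusp4, Dusp8, Dusp10 and Spred3 did not pass.

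Among G-protein and calcium feedback genes, 7 of 14 were positive and none negative. Rgs16, which speeds the shut-off of G-protein signals, stood at 6.97 and 6.89 in siNTC PBS, 8.56 and 8.64 in siNTC Ang II, 6.36 and 6.70 in siGiver PBS and 9.58 and 9.82 in siGiver Ang II arrays. No groups overlapped, and both siGiver PBS arrays were below the siNTC ones. It rose 3.18-fold and 9.003-fold with Ang II in the 2 arms (interaction 1.50 ± 0.165, adjusted p = 0.00291). Rcan1, the calcineurin inhibitor, began at like levels in both arms (8.22 and 8.33, against 8.19 and 8.30), which overlapped. It rose by 1.61 in siNTC and 2.47 in siGiver cells (interaction 0.86 ± 0.089, adjusted p = 0.00226).

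Akap12, a scaffold that anchors protein kinases A and C, was one of the 6 genes whose effect turned from a fall to a rise. It measured 10.26 and 10.33 in siNTC PBS, 10.05 and 10.00 in siNTC Ang II, 10.49 and 10.54 in siGiver PBS and 11.75 and 11.82 in siGiver Ang II arrays. Both siNTC Ang II arrays were the lowest and both siGiver Ang II arrays the highest. Its interaction was 1.53 ± 0.072 (adjusted p = 0.000311). The other Akap12 probe set gave an interaction of 1.33, with an Ang II effect of 0.0027 in siNTC cells, so the fall was seen on the brighter probe set only. Rgs2 rose in both arms, by 0.94 and 1.40, and its interaction of 0.46 (adjusted p = 0.0171) was lost in 5 of the 8 fits without 1 array, with adjusted p up to 0.067. The list's count fell to 4 without siNTC PBS replicate 2, siNTC Ang II replicate 1 or siGiver PBS replicate 1.

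Growth factor and ligand genes were mixed, with 5 of 18 positive and 1 negative. Hbegf, the EGF receptor ligand shed in response to Ang II, stood at 7.69 and 7.82 in siNTC PBS, 8.24 and 8.25 in siNTC Ang II, 7.73 and 7.77 in siGiver PBS and 9.48 and 9.55 in siGiver Ang II arrays. The PBS groups overlapped and the siGiver Ang II arrays were the highest. The interaction was 1.28 ± 0.081 (adjusted p = 0.000365). The endothelin gene Edn1 rose by 0.39 in siGiver cells with -0.23 in siNTC cells, and the PDGF A chain gene Pdgfa rose by 0.23 and 0.70. Bmp2 rose by 1.76 in siGiver cells with 0.54 in siNTC cells, from PBS levels below the filter value in both arms. The EGF family ligands Areg and Ereg did not pass (0.092 and 0.12), and Gdf15, a stress-induced ligand, was the negative gene (-0.68).

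**Figure D2:**
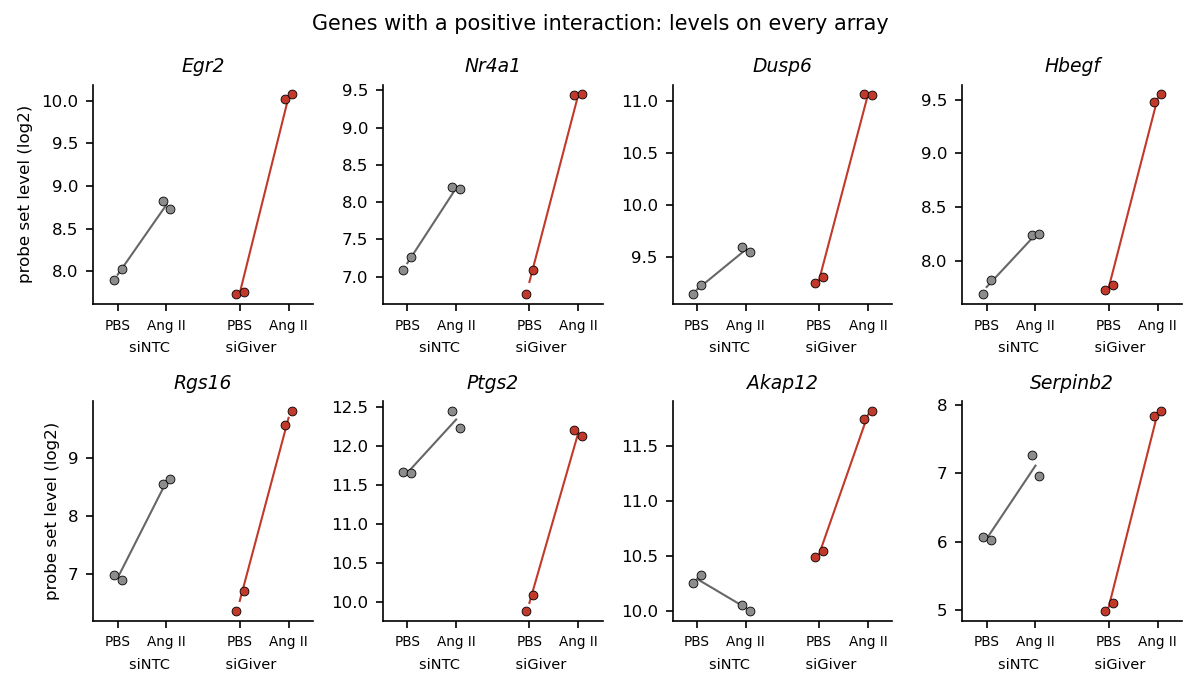
Levels (log2) of 8 genes with a positive interaction on every array, 2 points per group, with lines joining group means from PBS to Ang II in siNTC and siGiver cells. In each panel the line is steeper upward in siGiver cells, as for Egr2, which rose by 0.82 in siNTC and 2.30 in siGiver cells.

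Genes of inflammation gave mixed counts, and the prostaglandin list had 3 positive members of 10 and no negative one. Ptgs2, the inducible prostaglandin synthase, measured 11.66 and 11.65 in siNTC PBS, 12.45 and 12.23 in siNTC Ang II, 9.89 and 10.09 in siGiver PBS and 12.21 and 12.13 in siGiver Ang II arrays. The siGiver arrays were far lower in PBS, and both siGiver Ang II arrays lay just under the siNTC Ang II arrays. Its interaction was 1.50 ± 0.124 (adjusted p = 0.000827). In PBS the arms differed by -1.67, and with Ang II by -0.17, which did not pass (adjusted p = 0.15). Pla2r1 (0.50) and Pla2g4a (0.29) were the other positive members, and the Pla2g4a call was lost in all 8 fits without 1 array. The synthases Ptges and Ptgis and the receptors Ptger2 and Ptger4 did not pass.

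Of 18 inflammatory cytokine and chemokine genes, 4 were positive and 2 negative. Tslp, an epithelial-type cytokine, rose by 0.38 and 1.39, and Il1rl1, the interleukin 33 receptor, rose by 0.66 in siGiver cells with -0.05 in siNTC cells. The other Il1rl1 probe set gave an interaction of 0.28 and did not pass. Ccl20 (0.38) and Cxcl1 (0.34) were also positive, and the Cxcl1 call was lost in 7 of 8 fits without 1 array. The positive count fell to 2 in 7 of the 8 fits, all but the one without siGiver PBS replicate 2. Ackr3 and Cxcl6 were the negative genes. Of 14 NF-kB feedback and adhesion genes, 6 were positive, led by the ubiquitin-editing inhibitor Tnfaip3, which rose by 0.74 in siGiver cells with 0.12 in siNTC cells (interaction 0.63 ± 0.062, adjusted p = 0.00188). That count fell to 3 without either siGiver PBS array, either siNTC Ang II array, siNTC PBS replicate 1 or siGiver Ang II replicate 2. Vcam1 and Birc3 did not pass (0.028 and 0.033).

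Further large positive interactions lay mostly outside the lists. Olr1, the receptor for oxidized LDL, stood at 6.48 and 6.74 in siNTC PBS, 7.31 and 7.27 in siNTC Ang II, 5.38 and 5.32 in siGiver PBS and 7.98 and 7.78 in siGiver Ang II arrays. Its siGiver arrays were again the lowest in PBS and the highest with Ang II, with no overlap (interaction 1.85 ± 0.136, 3.6 times, adjusted p = 0.000619). Serpinb2, an inhibitor of plasminogen activators, rose by 1.07 and 2.83 (interaction 1.76). Fam110c had the largest positive interaction among the named genes, 1.93 ± 0.142, with a siGiver PBS level below the filter value. The kinase Sgk1 rose by 0.62 and 2.01, and Flt1, a VEGF receptor with a cyclic AMP element printed above, by 0.46 and 1.77. A dimmer Flt1 probe set gave 0.16 and did not pass. The hexokinase gene Hk2 rose by 1.53 in siGiver cells with 0.27 in siNTC cells. It was the 1 positive gene of 23 glycolysis and hypoxia genes, near the 3.35% positive over all genes. Adm (-0.56) and Ddit4 (-0.45) of that list were negative, with calls lost in 4 and 6 of the 8 fits without 1 array.

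Of 15 SRF and YAP target genes, 6 were positive and none negative. Among the 6, Srf also counts as an immediate early gene, and Vcl and Tpm1 count as contractile genes. Ccn1, a secreted matricellular protein, rose by 0.41 and 1.14, and F3, tissue factor, by 0.30 and 0.82. The count fell to 3 without either siNTC Ang II array, siGiver PBS replicate 1 or siGiver Ang II replicate 1. Of 30 matrix and remodelling genes, 6 were positive. Tnc, a matrix glycoprotein of remodelling vessels, measured 10.48 and 10.49 in siNTC PBS, 10.60 and 10.64 in siNTC Ang II, 9.89 and 9.93 in siGiver PBS and 10.96 and 11.02 in siGiver Ang II arrays. The siGiver arrays were the lowest and then the highest without overlap (interaction 0.95 ± 0.065, adjusted p = 0.00053). Plaur, the urokinase receptor, rose by 0.69 and 1.80. The other Plaur probe set, just above the filter value at 4.83, rose by 0.23 in both arms. Its interaction of 0.0024 did not pass. The matrix count fell to 2 without siNTC Ang II replicate 1, and to 3 without siNTC PBS replicate 2, either siGiver PBS array or either siGiver Ang II array. The fibrillar collagen genes Col1a1, Col1a2 and Col3a1 did not pass (0.16, 0.096 and 0.095).

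Some positive interactions were a fall in siNTC cells that siGiver cells did not show. Col14a1, a fibril-associated collagen also used as a fibroblast marker, measured 10.17 and 10.12 in siNTC PBS and 9.71 and 9.67 in siNTC Ang II arrays, against 10.03 and 10.01 in siGiver PBS and 10.05 and 10.03 in siGiver Ang II arrays. Its siNTC Ang II arrays were the lowest and its siNTC PBS arrays the highest, while the siGiver groups overlapped (interaction 0.47 ± 0.063, adjusted p = 0.00617). Of 9 fibroblast markers tested, Col14a1 and Dcn (0.39) were positive, and the mean of the list per array was 7.48 and 7.53 in siNTC PBS, 7.24 and 7.29 in siNTC Ang II, 7.55 and 7.55 in siGiver PBS and 7.44 and 7.46 in siGiver Ang II arrays. The part of fibroblast RNA in these results was not tested. The Dcn call was lost in 6 of 8 fits without 1 array. The lipid receptor gene S1pr3 and the collagen gene Col12a1 turned from falls of -0.29 and -0.41 to rises of 0.54 and 0.32, and the Col12a1 call was lost when its probe sets were averaged.

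On the lost side were the interferon response genes. Of 22 interferon-induced antiviral effectors, 18 had a negative interaction and none a positive one. The list's median Ang II effect was 0.70 in siNTC and -0.054 in siGiver cells, and 18 members rose in siNTC cells against 1 in siGiver cells. Mx1, a GTPase that blocks viral replication, stood at 9.32 and 9.31 in siNTC PBS, 11.11 and 11.06 in siNTC Ang II, 9.25 and 9.28 in siGiver PBS and 9.02 and 9.12 in siGiver Ang II arrays. Only the siNTC Ang II arrays were high, and no groups overlapped. Its interaction of -1.96 ± 0.070 (adjusted p = 8.12e-05) made the Ang II ratio 3.9 times smaller in siGiver cells.

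Ifit3, which binds RNA-sensing complexes, measured 10.02 and 10.10 in siNTC PBS, 11.41 and 11.35 in siNTC Ang II, 10.02 and 10.11 in siGiver PBS and 10.12 and 10.10 in siGiver Ang II arrays. Only the siNTC Ang II arrays were high, and the other groups overlapped or met. The interaction was -1.28 ± 0.076 (adjusted p = 0.000348). Other effectors with a negative interaction were Isg15, a ubiquitin-like modifier (-0.95), the exonuclease Isg20 (-0.91), the viperin gene Rsad2 (-0.79) and Oas1a, an oligoadenylate synthetase (-0.78). Those that did not pass were Ifit2 (-0.41), Oas1b (-0.59), Eif2ak2 (-0.27) and Ifi27 (-0.16). Leaving out 1 array kept the count between 16 and 19.

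All 4 interferon-induced chemokine genes were negative, also in every fit without 1 array. Cxcl11, a ligand of CXCR3, measured 7.74 and 7.92 in siNTC PBS, 9.43 and 9.48 in siNTC Ang II, 7.62 and 7.67 in siGiver PBS and 7.49 and 7.61 in siGiver Ang II arrays. Again only siNTC cells given Ang II were high (interaction -1.72 ± 0.100, adjusted p = 0.000348). Ccl5, which attracts T cells and monocytes, rose by 1.19 in siNTC cells and stood at -0.11 in siGiver cells, from a higher PBS level in siGiver cells (10.12 and 10.12, against 9.70 and 9.77). Cxcl9 rose by 1.31 and fell by 0.30 on the log2 scale in siGiver cells, where its level with Ang II was below the filter value. The other Cxcl9 probe set had an interaction of -1.18 and stood at 0.16 in siGiver cells, with no fall. Cxcl10, a further CXCR3 ligand, measured 11.16 and 11.20, then 12.07 and 12.08, in siNTC cells and 11.76 and 11.71, then 11.99 and 12.002, in siGiver cells. It was thus higher in siGiver cells in PBS and close to siNTC cells with Ang II, and it rose in both arms (interaction -0.63 ± 0.062, adjusted p = 0.00182).

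Guanylate binding proteins and antigen processing genes had 10 negative members of 16, with medians of 0.46 in siNTC and -0.069 in siGiver cells, and 9 or 10 in the fits without 1 array. Gbp2, a GTPase of cell-autonomous immunity, measured 10.19 and 10.25 in siNTC PBS, 11.00 and 10.95 in siNTC Ang II, 10.98 and 10.99 in siGiver PBS and 10.88 and 10.89 in siGiver Ang II arrays. The siNTC PBS arrays were the lowest, and the siGiver PBS arrays lay within the range of the siNTC Ang II arrays. The interaction was -0.86 ± 0.064 (adjusted p = 0.000638). Its relative Gbp4 showed another pattern, at 9.37 and 9.45 in siNTC PBS, 10.38 and 10.31 in siNTC Ang II, 8.49 and 8.64 in siGiver PBS and 8.50 and 8.37 in siGiver Ang II arrays. All 4 of its siGiver arrays were below all siNTC arrays (interaction -1.06 ± 0.100, adjusted p = 0.00159). The immunoproteasome subunit genes Psmb9, Psmb8 and Psmb10 had interactions of -0.81, -0.65 and -0.77, and the peptide transporter gene Tap1 -0.48. Igtp and Psme2, an immunity GTPase and a proteasome activator gene with printed promoters, rose by 0.59 and 0.39 in siNTC cells and stood at -0.09 and -0.15 in siGiver cells. Tap2, B2m, Erap1, Cd74 and Ciita did not pass. With every probe set tested, another B2m probe set was called (-0.42, adjusted p = 0.0454), with 0.40 in siNTC and -0.018 in siGiver cells.

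Genes that sense nucleic acids or carry the interferon signal had 5 negative members of 24 and no positive one. Irf7, the factor that amplifies interferon gene transcription, measured 12.23 and 12.20 in siNTC PBS, 12.91 and 12.98 in siNTC Ang II, 12.28 and 12.26 in siGiver PBS and 12.09 and 12.11 in siGiver Ang II arrays. It rose in siNTC and fell in siGiver cells, with no overlap (interaction -0.90 ± 0.064, adjusted p = 0.000579). Zbp1, a sensor of Z-form nucleic acid, rose by 1.38 in siNTC cells and stood at -0.12 in siGiver cells, and Stat2 rose by 0.48 and stood at -0.08. Irf1 (-0.41) and Dhx58 (-0.66) were also negative, with calls lost in 4 and 7 of the 8 fits without 1 array. The interferon receptor and kinase genes Ifnar1, Ifnar2, Ifngr1, Ifngr2, Jak1, Jak2 and Tyk2 did not pass, and neither did Ifnb1 (0.042), Irf3 or Irf9. The count of 5 fell to 3 without siNTC PBS replicate 1, siNTC Ang II replicate 2, siGiver PBS replicate 1 or siGiver Ang II replicate 2.

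The 5S ribosomal RNA control probe set stood at 8.15 and 8.24 in siNTC PBS, 8.88 and 8.93 in siNTC Ang II, 7.63 and 7.62 in siGiver PBS and 7.71 and 7.77 in siGiver Ang II arrays (interaction -0.60). It was highest in the siNTC Ang II arrays, as were Mx1, Ifit3, Cxcl11, Ccl5, Gbp4 and Irf7. Gbp2, which also rose in siNTC cells only, was as high in siGiver PBS arrays. The part of the 5S difference in the result was not tested. The poly-A spike-ins changed by 0.082 with Ang II in siNTC cells and by -0.58 in siGiver cells, and their part in the result was not tested either. Of 12 macrophage and leukocyte markers, 4 lay above the filter value. Their mean per array was 6.09 and 6.14 in siNTC PBS, 6.22 and 6.26 in siNTC Ang II, 6.15 and 6.13 in siGiver PBS and 5.87 and 6.06 in siGiver Ang II arrays. Cd14 was called (-0.40), a call lost in 6 of 8 fits without 1 array, and Cd68 (-0.72, adjusted p = 0.173), Aif1 (-0.099) and Lyz2 (0.035) did not pass. The leukocyte marker Ptprc (mean 3.35) and the macrophage marker Adgre1 (mean 2.69) were dim.

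**Figure D3:**
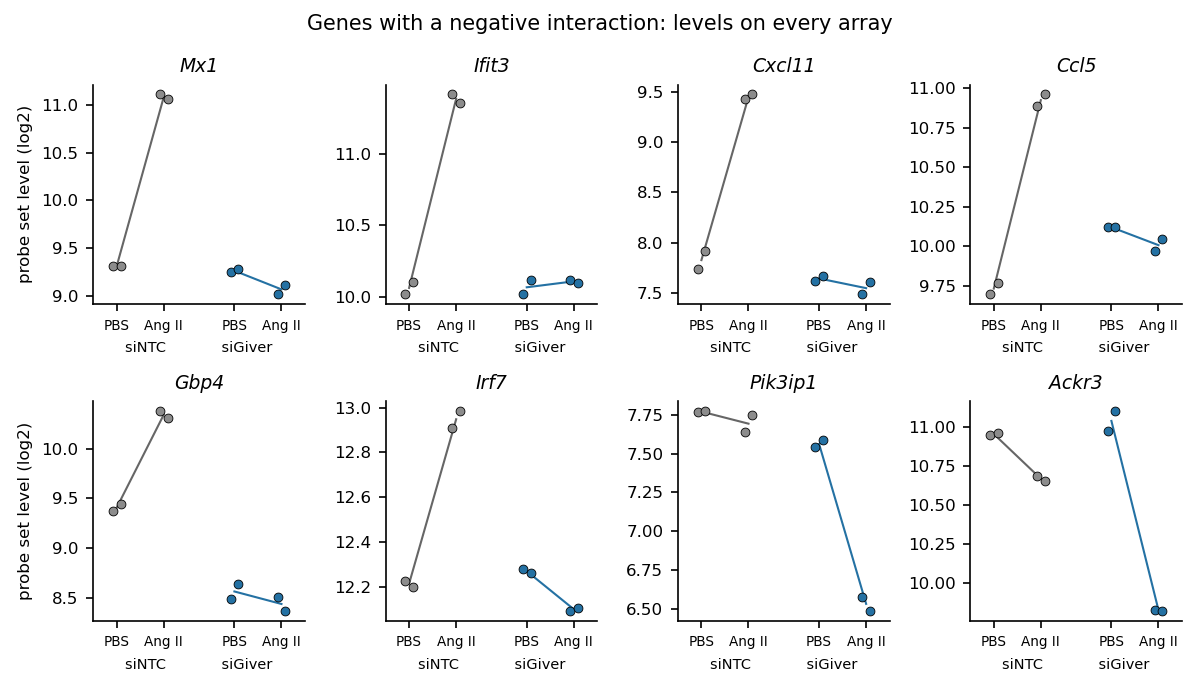
Levels (log2) of 8 genes with a negative interaction on every array, 2 points per group, with lines joining group means from PBS to Ang II in siNTC and siGiver cells. Mx1, Ifit3, Cxcl11, Ccl5, Gbp4 and Irf7 rise only in siNTC cells, whereas Pik3ip1 and Ackr3 fall furthest in siGiver cells.

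Another kind of negative interaction was a fall with Ang II that siGiver cells gained. Of 18 FOXO target and PI3K brake genes, which are transcribed when growth factor signalling is low, 8 were negative and 1 positive. Pik3ip1, an inhibitor of PI3 kinase, measured 7.77 and 7.78 in siNTC PBS, 7.64 and 7.75 in siNTC Ang II, 7.54 and 7.59 in siGiver PBS and 6.58 and 6.49 in siGiver Ang II arrays. Both siGiver Ang II arrays lay well below all others (interaction -0.95 ± 0.078, adjusted p = 0.000824). The other Pik3ip1 probe set, below the filter value, gave -0.087 and did not pass. Klf15, a factor of fasting and quiescence, fell by 0.79 on the log2 scale in siGiver cells and stood at 0.12 in siNTC cells, and Ccng2, an atypical cyclin of arrested cells, fell by 0.70 and stood at -0.10. The other, dimmer probe sets of Klf15 gave -0.046 and -0.30 and did not pass. Sesn1 (-0.53) and Cdkn1b, the cyclin kinase inhibitor p27 (-0.47), were lost in 2 and 5 of the 8 fits without 1 array. The pseudokinase gene Trib2 was the positive member, with siGiver levels of 8.10 and 8.07 in PBS and 9.68 and 9.78 with Ang II, against 9.13 and 9.32, then 9.76 and 9.78, in siNTC cells. Its arms were far apart in PBS and overlapped with Ang II. The negative count fell to 4 without siNTC PBS replicate 1, siNTC Ang II replicate 1 or siGiver PBS replicate 1, and to 5 without siNTC PBS replicate 2, siNTC Ang II replicate 2 or siGiver Ang II replicate 2. The poly-A spike-ins were also lower in siGiver Ang II than in siGiver PBS arrays, by a mean of -0.58. Their part in these falls was not tested.

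Ackr3, a receptor that scavenges the chemokine Cxcl12, fell in both arms. It measured 10.94 and 10.96 in siNTC PBS, 10.68 and 10.65 in siNTC Ang II, 10.97 and 11.10 in siGiver PBS and 9.83 and 9.82 in siGiver Ang II arrays. Both siGiver Ang II arrays were the lowest (interaction -0.92 ± 0.075, adjusted p = 0.000824). Sash1, a scaffold protein gene, fell by 0.33 and 0.81 on the log2 scale. Dbp, a clock output factor that Nfil3 opposes at the same DNA sites, fell by 0.50 on the log2 scale in siGiver cells and stood at 0.23 in siNTC cells (interaction -0.73 ± 0.095, adjusted p = 0.00593). The stress factor gene Ddit3 instead lost a rise of 0.55, standing at -0.10 in siGiver cells.

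The siRNA difference in PBS and with Ang II shows from which end each interaction came. In PBS, 16.0% of all genes were higher and 19.1% lower in siGiver cells (35.1% in all). With Ang II, 19.5% were higher and 24.8% lower (44.3% in all), and these contrasts use the arrays of the interaction. Among the 381 positive genes, 281 were higher in siGiver cells with Ang II, of which 151 did not differ in PBS by the test, 81 were already higher in PBS and 49 were lower in PBS. Dusp6, Egr1, Hbegf and Errfi1 belonged to the 151, and Nr4a3, Olr1, Serpinb2, Spry2 and Tnc to the 49. In another 71, such as Ptgs2, Trib2, Tslp and Pdgfa, siGiver cells were lower in PBS and not called with Ang II. The last 29, Tnfaip6 among them, were lower in siGiver cells in both, with a smaller gap with Ang II. Among the 326 negative genes, 280 were lower in siGiver cells with Ang II. Of these, 165 did not differ in PBS by the test, among them Mx1, Ifit3, Irf7 and Ackr3, and 92 were already lower, among them Gbp4, Zbp1 and Cxcl9. Ccng2, Gbp2, Cxcl10 and Ddit3 belonged to the 36 that were higher in siGiver cells in PBS and not called with Ang II.

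**Figure D4:**
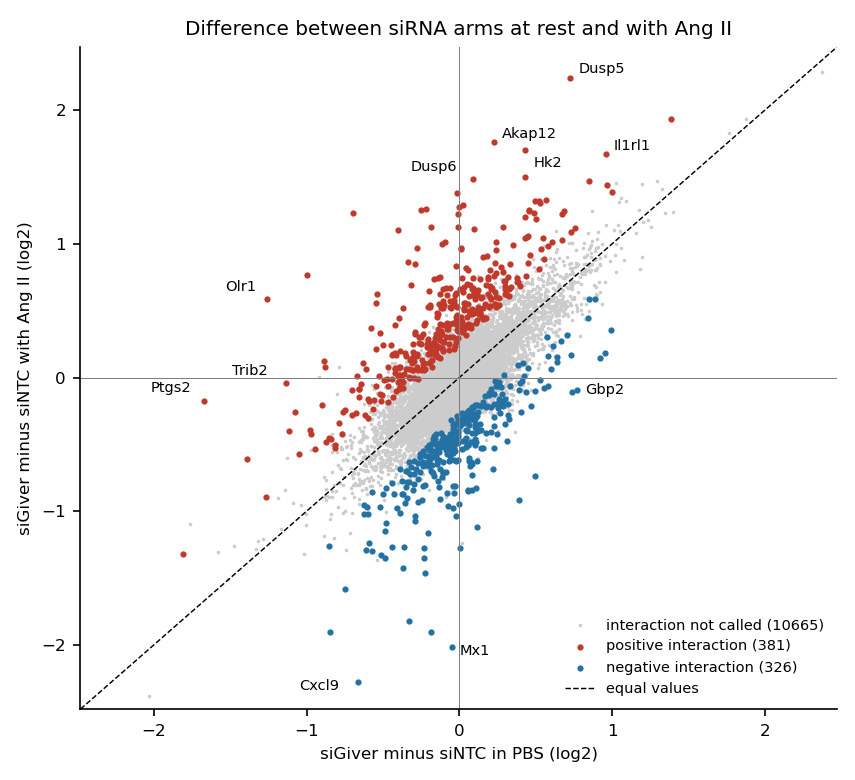
Difference between siGiver and siNTC cells (log2) in PBS on the x axis and with Ang II on the y axis for 11372 genes, with the 381 positive and 326 negative interactions in colour and a dashed line of equal values. Ptgs2 lies at -1.67 and -0.17, so its arms differ in PBS, while Dusp6 lies at 0.09 and 1.48, so its arms differ with Ang II.

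Several genes central to Ang II biology showed no called interaction. Nox1, which makes superoxide as part of an NADPH oxidase, measured 8.50 and 8.48, then 8.97 and 8.88, in siNTC cells and 7.01 and 6.94, then 7.47 and 7.37, in siGiver cells. All siGiver arrays were lower, and both arms rose by 0.44. Its interaction was 0.0042, with a 95% confidence interval from -0.18 to 0.19. Il6 rose by 0.63 and 0.69 (interval of the interaction -0.08 to 0.21) and Ccl2 by 0.28 and 0.35 (-0.08 to 0.22), each from lower siGiver PBS levels. The type 1 receptor gene Agtr1a fell by 0.67 and 0.53 on the log2 scale (interval -0.01 to 0.29). The type 2 receptor gene Agtr2, by contrast, was called negative (-0.37, adjusted p = 0.0243), at 0.14 in siNTC and -0.23 in siGiver cells. Its other, dim probe set gave 0.026 and did not pass. Tnf had an interval from -0.28 to 0.24, on a probe set that stood at -0.083 in siNTC and -0.099 in siGiver cells. Another Tnf probe set stood at 0.56 and 0.37, and its interaction of -0.19 did not pass. The smooth muscle actin gene Acta2 had an interaction of 0.23 ± 0.062 (adjusted p = 0.0688) and Myh11 one of 0.24 ± 0.062 (adjusted p = 0.0672).

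Limma called no interaction among 23 cell cycle genes, 7 NADPH oxidase subunit genes, 13 cholesterol genes, 14 Notch pathway genes and 10 reference genes (B2m, a reference gene too, was called on its other probe set). Over all genes 6.22% were called, and at that share any 1 list this short would hold few calls. The lists were not tested together. The median interaction of the cell cycle list was -0.087 against -0.022 over all genes. Of 19 contractile genes, 4 were positive (Vcl, Ldb3, Tpm1 and Itga8, from 0.30 to 0.41). The other probe sets of Ldb3 ranged from -0.39 to 0.24, and none passed. That count fell to 0 without siNTC Ang II replicate 1, siGiver PBS replicate 1 or siGiver Ang II replicate 1, to 1 without siNTC PBS replicate 2, siNTC Ang II replicate 2, siGiver PBS replicate 2 or siGiver Ang II replicate 2, and to 2 without siNTC PBS replicate 1. Of 15 ion channel and pump genes, Kcnn4 (0.63) and Trpc6 (0.51) were positive, against 3.35% of all genes. The Trpc6 call was lost without siNTC PBS replicate 2.

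Stress response lists gave positive counts that did not hold without 1 array. Of 21 genes of the integrated stress and unfolded protein responses, 4 were positive, among them the amino acid transporter gene Slc7a5 (0.35) and the chaperone-like Creld2 (0.34), and 2 were negative, Ddit3 and Sesn2. In each of the 8 fits without 1 array the positive count fell to 0 or 1. Of 16 antioxidant genes, Txnrd1 was positive (0.34) and Mt2A, Sod2 and Nqo1 were negative (-0.35, -0.31 and -0.27), and each of these calls was lost in at least 7 of the 8 fits.

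**Figure D5:**
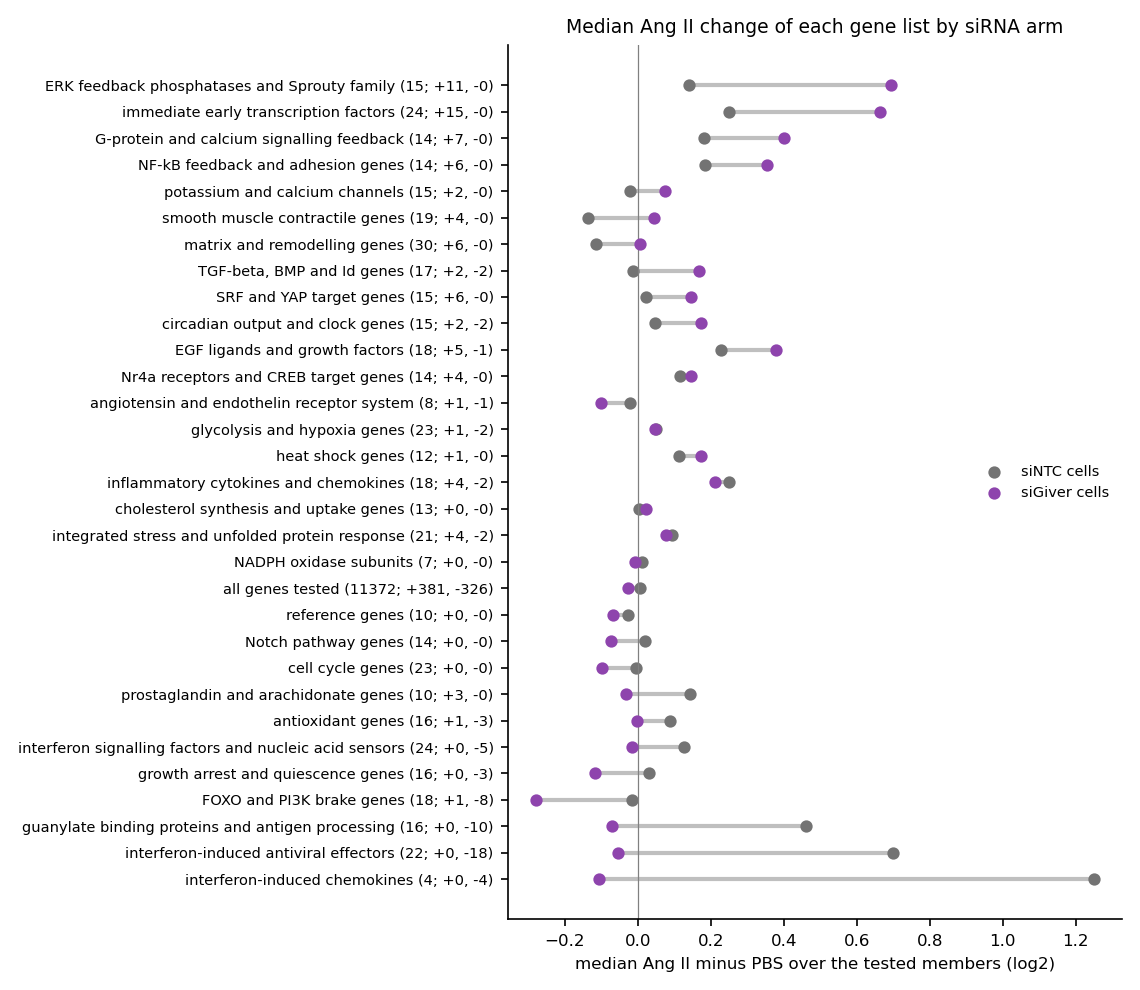
Median Ang II effect (log2) of 30 gene lists and of all 11372 genes in siNTC and in siGiver cells, 1 row per list; the brackets give members tested, then those with a positive and a negative interaction. The interferon chemokine row runs from 1.25 in siNTC to -0.11 in siGiver cells, and the ERK feedback row from 0.14 to 0.70.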

How the data were processed

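The authors deposited log2 values, 1 per probe set and array (31099 probe sets, 2.06 to 14.6). The submitters' processing notes name RMA, which corrects background and applies quantile normalization between arrays, and Partek, with versions not given in the sources used here. Levels compare between arrays for 1 probe set, not between probe sets. Arrays have no read depth, and their number limits the precision.

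GEO's annotation gave 1 symbol to 20826 probe sets, several to 436 and none to 9780, besides 57 controls. Only single-symbol probe sets were named, and 20764 were matched to RefSeq. Means under the 30th percentile (4.81 log2) were left out and the brightest probe set per symbol kept. Limma 3.58.1 (R 4.3.3) fitted 4 group means to 8 arrays (residual degrees of freedom 4, prior 3.53) and tested 5 contrasts, each with Benjamini-Hochberg adjustment. The fit was tested on simulated data. Members and the 34 gene lists were chosen with earlier results of these data known. Of 574 list genes, 480 were tested.

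Named genes were the 12 largest called interactions per direction, 3 per shape, up to 5 per list by p, and a set of Ang II genes always given. Alternatives were other filters, probe set rules, scalings and moderation, a replicate block and leaving out each array. Replicate numbers did not pair the arrays: deviations of same-numbered arrays correlated between -0.174 and 0.0951.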

Additional observations from a re-analysis of the deposited data

Results flagged for a closer look

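Results whose Ang II effects differed between the siRNA arms by the test of the difference itself are the 707 called interactions, 381 positive and 326 negative. Genes whose effect took opposite signs in the arms, each called in both, included Akap12, with a fall in siNTC and a rise in siGiver cells (interaction 1.53), S1pr3 (0.825) and Col12a1 (0.725). The reverse pattern, a rise in siNTC and a fall in siGiver cells, was shown by Mx1 (-1.96), Cxcl9 (-1.61) and Ifi27l2b (-1.24). The Col12a1 call was lost when its probe sets were averaged, and its other probe sets gave 0.069 and 0.12. The other Akap12 probe set stood at 0.0027 in siNTC cells and the other Cxcl9 probe set at 0.16 in siGiver cells, so neither shows the opposite sign.

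Outside the gene measurements, the 5S ribosomal RNA control probe set differed by 0.709 between Ang II and PBS in siNTC cells and by 0.113 in siGiver cells, an interaction of -0.596. The series of 12 poly-A spike-in probe sets differed by a mean of 0.0817 in siNTC and -0.575 in siGiver cells, an interaction of -0.657. The series of 9 hybridization spike-in probe sets had a mean interaction of -0.264. None of these was tested with the genes.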

How the results depend on the processing

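Without the filter, limma called 467 interactions, 211 of them negative, against 707 and 326, and 420 Ang II effects in siNTC cells against 698. A filter at the 50th percentile gave 490 negative interactions and 1072 effects in siNTC cells. Trended, robust moderation gave 1490 interactions (805 positive, 685 negative), and 1496 and 2802 Ang II effects in siNTC and siGiver cells. Without 1 array, which also leaves fewer samples, interactions numbered 356 to 436 (199 to 256 positive, 157 to 204 negative), Ang II effects in siNTC cells 227 to 526 and those in siGiver cells 866 to 1741. With the replicate number as a block, 553 interactions were called (298 positive, 255 negative), though the numbers do not pair the arrays. With array medians subtracted, 60.0% of 655 calls were positive, against 53.9%. The cause of these shifts was not tested. Of 126 named genes with a called interaction, 78 kept the call without each array and 92 under the other alternatives, and 0 changed sign in any called fit. Counts of list members under each setting were added after seeing the data.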
